A study of Mus musculus with 12 samples.

Results

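The 36 genes described here encode proteins that carry a cell from the end of DNA replication through mitosis: cyclins, Cdk1 and its activators, mitotic kinases, checkpoint and centromere proteins, kinesins, and factors of the spindle and of cytokinesis. They were matched by gene symbol to the annotation of an array of 33012 probes, and where a gene had more than 1 probe the one with the highest mean log2 signal over all arrays was taken. The match by symbol uses no measured value, but the list of members was chosen with earlier results of these data known. A probe was found for 33 of the 36 genes, of 13840 genes with a probe on the array, and 31 of them were tested. Ccnb1 (cyclin B1, the partner of Cdk1 at mitotic entry), Mki67 (the proliferation marker Ki-67) and Cenpf (a kinetochore protein) had no probe in the annotation used. The probes for Cdk1 and Ccnf (cyclin F) were not well above background on any of the 12 arrays.

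The RNA came from the mouse mammary tumour line MMT, and each of the 12 samples was hybridised to 1 single-colour Applied Biosystems array. There were 4 groups: 2 arrays of untransfected cells, 3 after a control siRNA (siCtrl), 3 after the siRNA directed at Erm (siErm) and 4 after the one directed at Pea3 (siPea3). The design text calls the replicates biological. All groups were grown in the same serum-containing medium, and no time after transfection, dose or siRNA sequence is given in the labels. Pea3 and Erm, now Etv4 and Etv5, are transcription factors of the ETS family. The study asked what follows their repression in these cells, and the untransfected cells were included to measure the effect of transfection itself.

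In dividing cells these genes are transcribed in a wave that rises in late S phase and peaks in G2 and mitosis. In resting cells and in G1 the DREAM complex of E2f4, p107 or p130 and the MuvB core holds them down. In cycling cells MuvB joins B-Myb and then FoxM1 and activates them. Both steps use a short promoter element, the cell cycle genes homology region (CHR), often with CCAAT boxes upstream that bind NF-Y. The mRNAs therefore follow the share of cells in G2 and mitosis, and in bulk RNA such as this a smaller share of dividing cells and less mRNA per cell cannot be told apart.

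The promoters below are those of Nusap1, Anln, Ccnb2 and Cdc25b, the members with a RefSeq promoter entry that had the smallest p values in the comparison of siPea3 with siCtrl. They are shown to let their elements be set beside the array values. Each runs 5′ to 3′ on the strand of the gene, from 250 bases before to 50 bases after the annotated start (RefSeq, GRCm38.p6). Capitals mark TTTGAA (the CHR), its variant TTCGAA and CCAAT, searched on both strands, so that TTCAAA and ATTGG are the same elements on the opposite strand. No 2 of the marked matches overlap, and in the counts over all promoters overlapping matches were allowed. The Nusap1 window lies at chr2:119618048-119618347 on the plus strand, that of Anln at chr9:22389157-22389456 on the minus strand, that of Ccnb2 at chr9:70421505-70421804 on the minus strand and that of Cdc25b at chr2:131186698-131186997 on the plus strand.
Nusap1: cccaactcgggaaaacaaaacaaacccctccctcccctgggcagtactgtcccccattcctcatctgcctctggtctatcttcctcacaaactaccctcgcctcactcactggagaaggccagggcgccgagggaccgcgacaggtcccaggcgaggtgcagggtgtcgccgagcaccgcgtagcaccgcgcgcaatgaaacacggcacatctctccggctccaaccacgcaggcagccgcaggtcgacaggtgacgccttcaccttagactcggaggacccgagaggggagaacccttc
Anln: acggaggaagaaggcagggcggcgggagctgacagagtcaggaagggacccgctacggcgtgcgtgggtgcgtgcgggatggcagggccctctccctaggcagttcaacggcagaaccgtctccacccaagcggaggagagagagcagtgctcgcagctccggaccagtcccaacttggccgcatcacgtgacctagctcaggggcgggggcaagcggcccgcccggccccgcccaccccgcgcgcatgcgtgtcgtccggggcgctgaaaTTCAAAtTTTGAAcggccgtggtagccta
Ccnb2: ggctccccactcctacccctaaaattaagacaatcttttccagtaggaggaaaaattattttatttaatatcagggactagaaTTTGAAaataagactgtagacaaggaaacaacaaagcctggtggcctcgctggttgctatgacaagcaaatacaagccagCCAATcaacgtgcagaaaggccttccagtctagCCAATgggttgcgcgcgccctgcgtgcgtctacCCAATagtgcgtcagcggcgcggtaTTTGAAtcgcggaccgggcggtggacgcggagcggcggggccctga
Cdc25b: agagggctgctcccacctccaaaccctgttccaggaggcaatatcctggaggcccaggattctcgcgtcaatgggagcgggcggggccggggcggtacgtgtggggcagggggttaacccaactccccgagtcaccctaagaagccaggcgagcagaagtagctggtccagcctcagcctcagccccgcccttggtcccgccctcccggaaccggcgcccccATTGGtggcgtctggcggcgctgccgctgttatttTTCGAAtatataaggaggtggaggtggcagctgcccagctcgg

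Ccnb2 held 3 CCAAT boxes with first bases at positions -87, -54 and -21 and a TTTGAA at 5, counted from 1 at the first transcribed base. A further TTTGAA of Ccnb2 lay at -167. In Cdc25b a TTCGAA stood at 8 with 1 CCAAT on the opposite strand at -28. Anln held TTTGAA letters on both strands at 22 and 29 and no CCAAT. None of the searched letters was found in the Nusap1 window. The table held 30 of the 36 genes, with 32 windows, since Ect2 and Prc1 have 2 each. TTTGAA occurred in 23 of the 32 windows (71.9%), against 17.9% of 32851 promoters of the same length. TTCGAA occurred in 4 windows (12.5%), against 1.56% of all promoters. CCAAT was found in 26 windows (81.2%), against 37.4%, and at least 2 copies in 17 (53.1%), against 11.7%. Both a CCAAT and 1 of the CHR forms were present in 23 windows (71.9%), against 7.52% of all promoters. A match is a description of these letters and not evidence of binding.

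Between 11286 and 13836 probes were detected per array, and siPea3 array 2 was the lowest with an upper quartile signal of 7.47 against 10.2 to 14.4 on the others. The Etv4 signal was 19.0 ± 2.17 in siPea3 (SD, n = 4), 36.9 ± 5.89 in siCtrl (n = 3), 34.9 ± 9.77 in siErm (n = 3) and 41.3 ± 0.75 in untransfected cells (n = 2). This difference of -0.95 ± 0.24 (log2, SE) between siPea3 and siCtrl had an adjusted p of 0.195 (limma, Benjamini-Hochberg over 16724 probes). Etv5 was detected on 3 arrays and so gives no check of the siErm label. Of the epithelial markers Krt8, Krt18, Krt19 and Cldn4 were detected on all 12 arrays and Epcam and Cdh1 on 0, while of 7 mesenchymal markers Vim (3018 to 8067) and Dcn were detected on all 12, Pdgfra on 11, Col1a2 on 7, Col1a1 on 6, Col3a1 on 3 and Lum on 0. The summed epithelial signal was 1740 to 1853 in untransfected cells, 822 to 1264 in siCtrl, 718 to 973 in siErm and 422 to 745 in siPea3. In the same order the mesenchymal sum was 8149 to 8954, 5650 to 9169, 6373 to 7370 and 4429 to 7207. That of 5 basal or myoepithelial markers was 19.5 to 28.8, 23.5 to 35.1, 26.1 to 54.4 and 35.4 to 64.4. Of the 4 T and B cell markers with a probe, Cd3e, Cd3d and Ptprc were detected on 0 arrays and Cd79a on 6, at signals of 0.75 to 2.98. Of 3 macrophage markers Adgre1 was detected on 0 arrays, Itgam on 1 and Cd14 on all 12.

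The cells expressed most of the programme. Of the 33 genes with a probe, 27 were detected on every array and 4 on some. Those 4 were Foxm1 and Kif23 (11 arrays each), Ttk (7 arrays) and Kif2c (4 arrays). Cdk1, the kinase that drives mitotic entry, had signals of 0.39 to 1.55 and Ccnf signals of 0.39 to 1.4 without detection, so no group can be compared for either.

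The largest shift of the genes as a group lay between the 2 untransfected arrays. On array 2, 28 of the 31 genes had a higher signal than on array 1, with a median log2 difference of 0.79 (1.73-fold), whereas the median of all tested probes differed by -0.21 and 38.5% of them were higher. Aurkb (Aurora B, the kinase of the chromosomal passenger complex) read 69.0 on array 1 and 339.5 on array 2. Kif20a, a kinesin of the central spindle, read 130.8 and 420.04, and Melk, a mitotic kinase, 12.9 and 39.5. Ccnb2 (cyclin B2) read 44.5 and 118, and Plk1 (the polo-like kinase of mitotic entry and spindle assembly) 77.9 and 182. Kif2c, Ttk and Anln were the 3 genes not higher on array 2. Array 2 held the highest signal of all 12 arrays for 18 of the 31 genes, and array 1 the lowest for 10. Relative to all probes, the median of the genes was -0.43 on untransfected array 1 and 0.51 on array 2. Among the 10 arrays of transfected cells the relative median ran from -0.33 on siPea3 array 2 and -0.19 on siCtrl array 2 to 0.15 on siErm array 1.

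**Figure D1:**
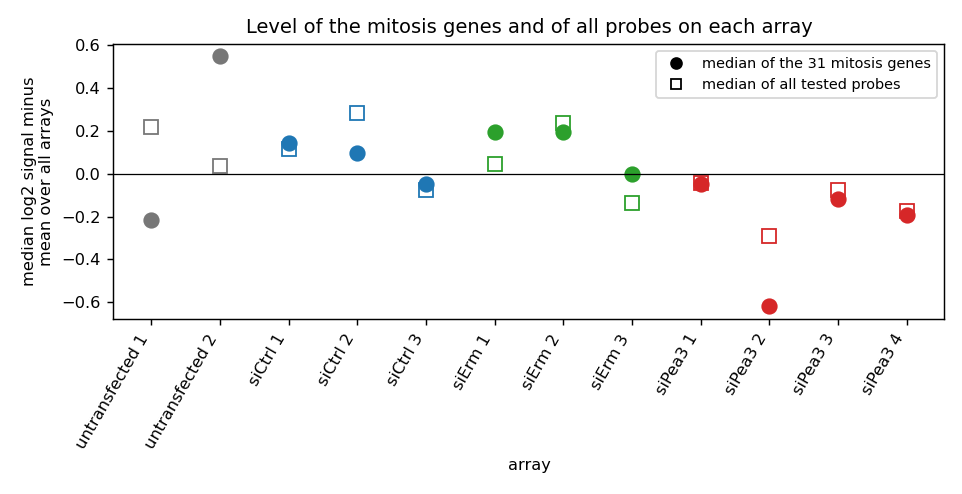
Median log2 signal, as the deviation from each probe's mean over all arrays, of the 31 tested mitosis genes (filled circles) and of all 16724 tested probes (open squares) on each of the 12 arrays, coloured by group. The circles and squares part most on the untransfected arrays, by -0.43 on array 1 and 0.51 on array 2, and on siPea3 array 2, by -0.33.

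**Figure D2:**
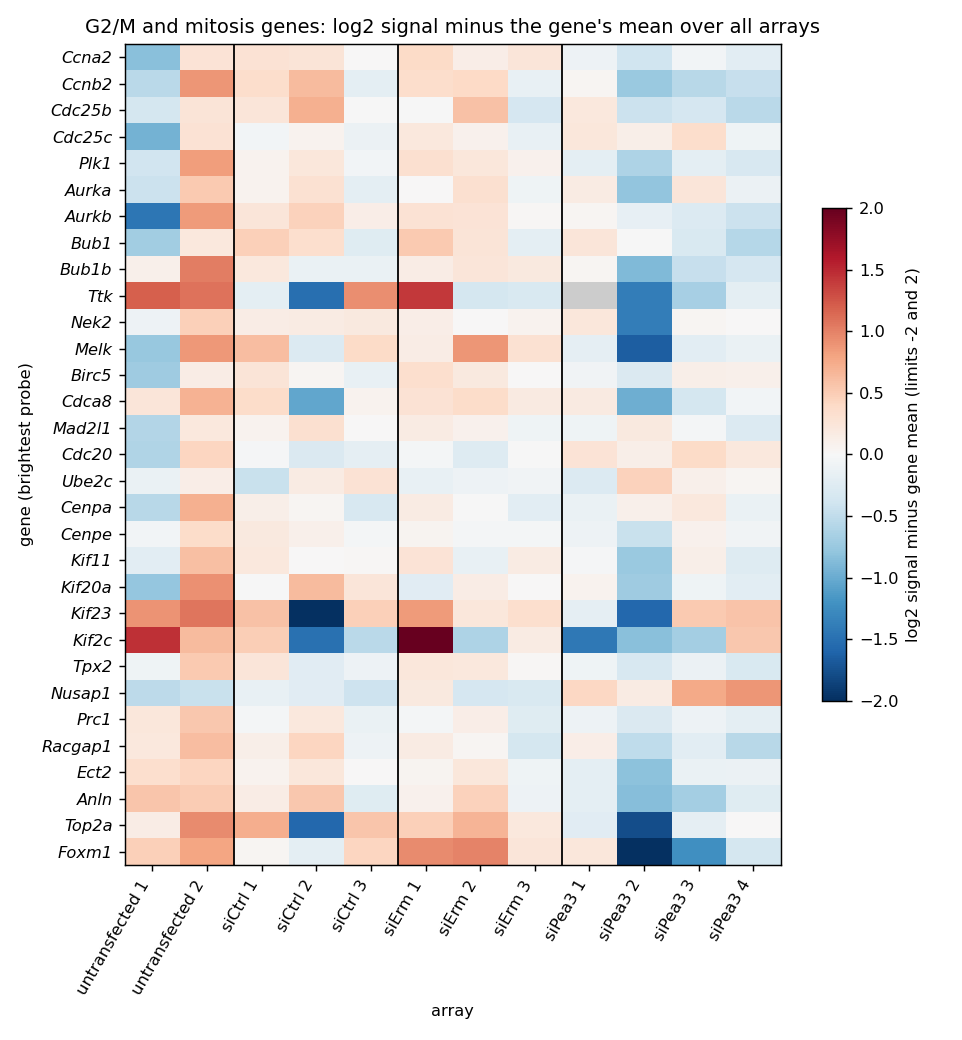
Log2 signal of each of the 31 tested genes minus its mean over the 12 arrays, with colours limited at -2 and 2 and a failed measurement (Ttk on siPea3 array 1) in grey. Untransfected array 2 is high for most genes, siPea3 array 2 holds the lowest value of 14 genes, and Kif23 and Top2a are low on siCtrl array 2.

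After siPea3 the genes lay slightly below siCtrl, by about as much as the other probes did, and none of the 31 passed the test. The median log2 difference of the 31 genes was -0.35, and that of all tested probes -0.24. Estimates were below 0 for 25 of the 31 genes (80.6%), against 69.4% of all probes. Measured from the median of all probes, 17 of the 31 lay below it and 14 above. The array scaling set the size of the common shift: the median of all probes became -0.02 with quantile normalization, -0.29 with median scaling and 0.07 with scaling over detected probes, and 17, 25 and 16 of the 31 genes were then below 0. With the Benjamini-Hochberg adjustment over all probes limma called 0 of 31 genes, and 0.0359% of all probes. At an unadjusted p under 0.05, 1 gene was higher (Nusap1) and 1 lower (Anln), against 2.78% and 10.6% of all probes. The 2 groups did not overlap for 2 genes that were higher (Nusap1, Cdc20) and 4 that were lower (Ccna2, Plk1, Aurkb, Ect2), which is 6.45% and 12.9% of the genes beside 2.84% and 12.4% of all probes. Under the other 3 scalings the lower genes without overlap were 0 (quantile), 5 (median) and 1 (detected probes), and the higher ones 3, 1 and 3. No share of all probes without overlap was counted under those scalings. Taken by replicate number, 13 genes were lower in siPea3 in all 3 same-numbered pairs (41.9% of the genes, against 29.0% of all probes) and 3 higher (Cdc25c, Cdc20, Nusap1, against 7.9%). The 13 were Ccna2, Ccnb2, Cdc25b, Plk1, Aurkb, Bub1, Bub1b, Melk, Mad2l1, Tpx2, Ect2, Anln and Top2a, and siPea3 array 4 has no siCtrl partner. With quantile, median and detected-probe scaling the lower genes were 5, 13 and 5 (16.1%, 41.9% and 16.1%), against 19.6%, 29.3% and 16.3% of all probes. These counts were chosen after seeing the data. All p values measure the spread between these arrays.

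**Figure D3:**
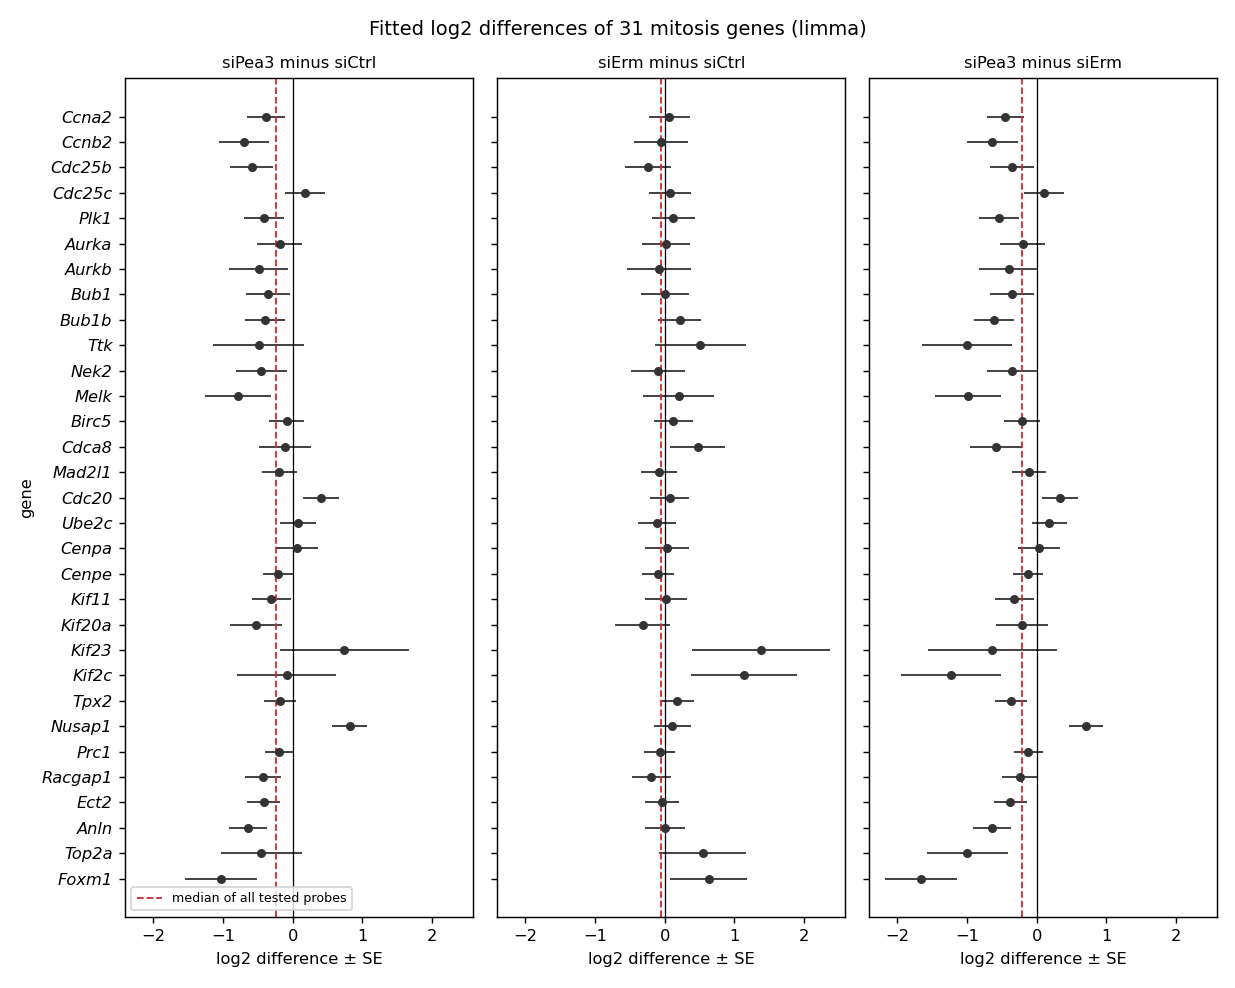
Fitted log2 difference ± SE of the 31 tested genes for siPea3 minus siCtrl, siErm minus siCtrl and siPea3 minus siErm, in the order of their roles, with the median of all tested probes as a dashed line. Most genes lie near the dashed line within their error, Nusap1 and Cdc20 lie to its right in both comparisons of siPea3, and Foxm1 lies farthest to the left there.

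Of the cyclins and the phosphatases that activate Cdk1, 3 of 4 had lower estimates after siPea3, as did 69.4% of all probes. Ccnb2 read 82.1, 99.8 and 56.1 in siCtrl and 66.0, 38.4, 43.7 and 46.9 in siPea3. As groups they overlapped through siCtrl array 3 and siPea3 array 1, while each siPea3 array was below the siCtrl array of its number, and the difference was -0.69 ± 0.36 (limma, adjusted p 0.417). Cdc25b, the phosphatase that first activates Cdk1 at the centrosome, read 69.4, 96.2 and 58.8 in siCtrl and 68.1, 43.9, 46.6 and 40.6 in siPea3. Here siPea3 array 1 lay among the siCtrl arrays, again with all 3 same-numbered pairs lower, and the difference was -0.59 ± 0.31 (limma, adjusted p 0.422). For Ccna2 (cyclin A2, needed in S phase and G2) the signals were 69.2 to 83.8 in siCtrl and 51.8 to 66.4 in siPea3, without overlap, and the difference was -0.38 ± 0.27. Cdc25c went the other way by 0.18 ± 0.29, from 35.2 ± 2.43 to 40.1 ± 5.11.

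All 8 tested mitotic kinases had lower estimates after siPea3, as did 69.4% of all probes, whose median was -0.24. The log2 differences of the kinases ran from -0.79 to -0.18, with none called. The 8 include Ttk, which was near background. Plk1 read 107, 119.7 and 97.6 in siCtrl and 89.2, 66.3, 88.9 and 81.8 in siPea3. Every siPea3 array was below every siCtrl array. The difference was -0.41 ± 0.29 with a 95% interval of -1.04 to 0.22 (limma, adjusted p 0.525), and the exact 2-sided permutation test gave p = 0.0571, the smallest p that 4 against 3 arrays allow. Aurkb also had no overlap, at 208 to 260.02 in siCtrl and 141 to 193 in siPea3 (-0.49 ± 0.43). Aurka, the spindle pole kinase, overlapped at 170.3 ± 28.8 and 153.9 ± 44.0 (-0.18 ± 0.32). Bub1, a checkpoint kinase at the kinetochore, was at 203.7 ± 50.6 and 159.5 ± 38.4 (-0.35 ± 0.32). Its relative Bub1b, the checkpoint protein BubR1, was at 36.6 ± 5.13 and 28.4 ± 7.36 (-0.39 ± 0.29). For Nek2, a kinase that separates centrosomes, the means were 59.9 ± 1.12 and 47.7 ± 18.6 (-0.45 ± 0.36), with siPea3 array 2 at 20.4. Melk was at 26.6 ± 7.93 and 16.2 ± 6.14 (-0.79 ± 0.47). Ttk (Mps1, which starts the spindle checkpoint) was not well above background on any siPea3 array, with signals of 0.9 to 2.06 there and 0.83 to 4.48 in siCtrl, and is given no fold.

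Neither the passenger and checkpoint partners nor the ubiquitin ligase factors were called. Birc5 (survivin) read 392 ± 55.8 in siCtrl and 369 ± 47.0 in siPea3 (-0.09 ± 0.26). Cdca8 (borealin), its partner in the passenger complex, was at 43.1 ± 18.9 and 38.6 ± 12.2. Mad2l1, the checkpoint inhibitor of Cdc20, had 2 probes, of which the brighter gave -0.19 ± 0.25 and the other -0.53 ± 0.25 (limma, adjusted p 0.752 and 0.378). Cdc20, which activates the anaphase-promoting complex, read 286.7, 239 and 258 in siCtrl and 352, 316, 381 and 338 in siPea3. All siPea3 arrays were above all siCtrl arrays for Cdc20, also above the siErm arrays at 245 to 292, but between the untransfected arrays at 192 and 396. The difference from siCtrl was 0.41 ± 0.26 with an interval of -0.16 to 0.98 (limma, adjusted p 0.488). Ube2c, the ubiquitin-conjugating enzyme of the same complex, differed by 0.08 ± 0.26.

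Centromere proteins and kinesins differed little between siPea3 and siCtrl for the size of their errors. Cenpa, the histone variant of the centromere, was at 200.7 ± 31.2 and 209.7 ± 25.8 (0.07 ± 0.30). Cenpe, a kinetochore kinesin, was at 30.3 ± 2.59 and 26.3 ± 3.86 (-0.21 ± 0.22) by its brighter probe and differed by -0.01 ± 0.63 by the other. Kif11 (Eg5, which separates the spindle poles) was at 40.9 ± 3.18 and 33.8 ± 8.18 (-0.31 ± 0.28), and Kif20a at 279 ± 63.9 and 194 ± 41.7 (-0.53 ± 0.37). Kif23, a subunit of centralspindlin, read 53.5, 2.6 and 49.4 in siCtrl and 31.5, 12.02, 50.9 and 53.04 in siPea3. Its low values were those of the arrays numbered 2 in both groups. Kif2c, a microtubule depolymerase, was not well above background on any siCtrl array (0.85 to 3.33) and was detected on 1 of 4 siPea3 arrays (0.88 to 3.46).

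The spindle and cytokinesis factors held the 2 smallest p values. Nusap1, which bundles spindle microtubules, read 132.7, 125 and 111 in siCtrl and 195.6, 165, 249.1 and 270.4 in siPea3. Every siPea3 array was above every siCtrl array and above both untransfected arrays at 102 and 109, while siErm array 1 at 168 passed the lowest siPea3 array. The difference from siCtrl was 0.82 ± 0.25 (1.76-fold, interval 0.28 to 1.36), with an unadjusted p of 0.0068 and an adjusted p of 0.248 in limma, and 0.0741 to 0.543 over its 18 alternatives. Anln (anillin, the scaffold of the contractile ring) read 301, 397 and 230.4 in siCtrl and 239, 151, 171 and 232 in siPea3. Only siCtrl array 3 lay among the siPea3 arrays, and all 3 same-numbered pairs were lower. The difference was -0.64 ± 0.27 (interval -1.24 to -0.04, limma adjusted p 0.348), and p was under 0.05 only before adjustment. Ect2, the exchange factor that activates RhoA in cytokinesis, had no overlap, at 28.8 to 33.3 in siCtrl and 16.2 to 26.3 in siPea3 (-0.42 ± 0.23). Racgap1, the centralspindlin subunit that binds Ect2, was at 76.7 ± 14.2 and 57.4 ± 13.1 (-0.43 ± 0.26). Tpx2, the activator of Aurora A, and Prc1, which bundles the central spindle, differed by -0.18 ± 0.23 and -0.19 ± 0.21.

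Foxm1, the transcription factor that activates these genes in G2, read 6.97, 5.92 and 9.06 in siCtrl and 7.95, 1.3, 2.9 and 5.28 in siPea3. It was dim throughout, with siPea3 array 1 inside the siCtrl range and siPea3 array 2 the array on which it was not detected. The difference of -1.02 ± 0.52 was the largest of the 31 genes in this comparison, with an interval of -2.16 to 0.12 (limma, adjusted p 0.404). Without siPea3 array 2 it was -0.54. Top2a, the topoisomerase that untangles chromosomes, read 299, 61.1 and 266 in siCtrl and 155, 52.6, 159 and 182 in siPea3. The arrays numbered 2 were the lowest of both groups, and the difference was -0.45 ± 0.58.

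**Figure D4:**
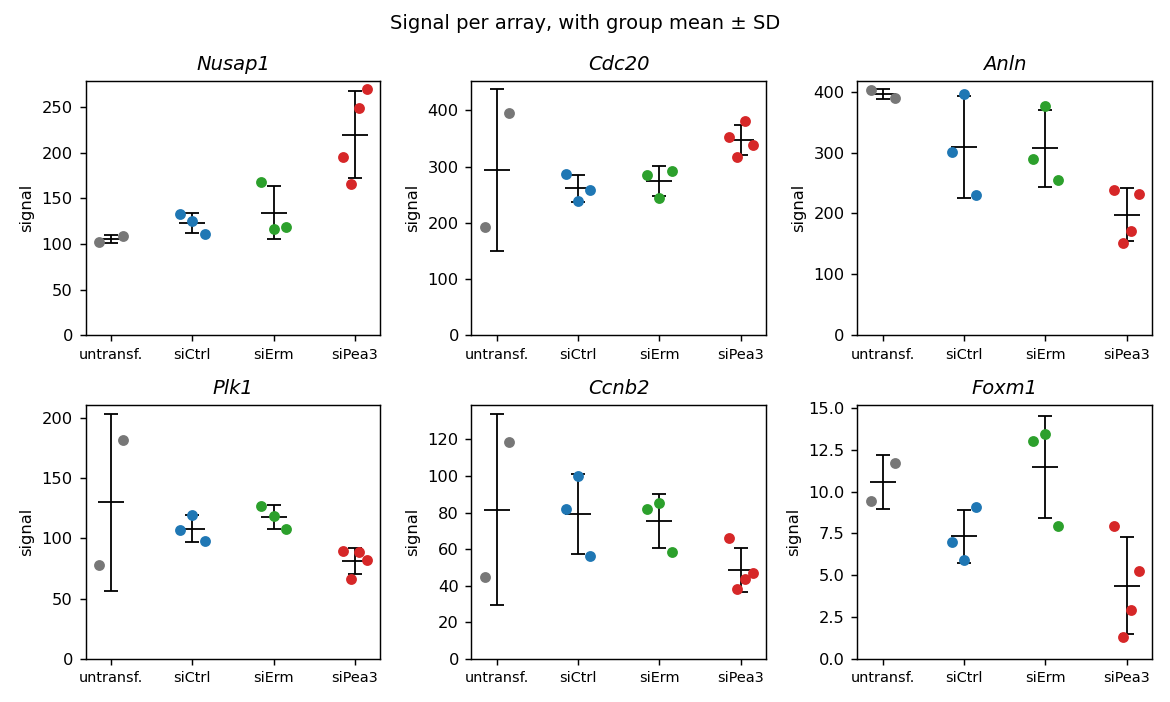
Signal on each array of 6 genes by group (points), with the group mean and SD (bars), each panel with its own axis from 0. Nusap1 and Cdc20 are above siCtrl on all 4 siPea3 arrays, Plk1 is below it on all 4, and the 2 untransfected arrays lie far apart for Cdc20, Plk1 and Ccnb2 but not for Nusap1 and Anln.

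Leaving out array 2 of siPea3 and of siCtrl, an alternative chosen after seeing the data, left 0 genes called. The median of the genes was then -0.23 and that of all probes -0.12. With all arrays the median of the genes relative to all probes was -0.11. It changed sign without siPea3 array 2 (0.03), siCtrl array 1 (0.008) or siCtrl array 3 (0.004). Without any other single array of these groups it stayed at -0.16 to -0.10. The 1 gene lower at an unadjusted p under 0.05 became 4 without siPea3 array 1, 2 without siCtrl array 3, and 0 without siCtrl array 1, siPea3 array 2 or siPea3 array 3. The replicate number as a block also called 0 genes. Same-numbered arrays of siPea3 and siCtrl correlated by 0.115 to 0.321 in their deviations. The differently numbered siPea3 array 4 and siCtrl array 3 reached 0.319, so the pairing by number is uncertain.

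No mitosis gene passed the test between siErm and siCtrl. It called 0 of the 31 genes and 0.0% of all probes, and 0 genes had an unadjusted p under 0.05 in either direction, against 1.08% (higher) and 0.945% (lower) of all probes. The median log2 difference was 0.04 for the genes and -0.05 for all probes, and 11 of 31 were below 0 (35.5%), against 57.3% of all probes. Measured from the median of all probes, 10 of the 31 lay below it and 21 above. With quantile, median and detected-probe scaling 8, 16 and 10 genes were below 0. The median of all probes was then -0.02, -0.10 and -0.01. Kif23 read 64.2, 41.6 and 44.9 in siErm, and the estimate of 1.38 ± 0.99 rested on the 2.6 of siCtrl array 2, without which it was -0.06. Top2a read 251, 289 and 208 in siErm, and its 0.55 ± 0.62 became -0.19 without the same array. Cdca8 read 55.7, 59.0 and 51.7 in siErm and 59.1, 22.2 and 48.1 in siCtrl (0.48 ± 0.40), again with siCtrl array 2 the low one. Kif2c read 11.9, 1.55 and 2.68 in siErm, detected on the first alone, and is given no fold. Foxm1 read 13.0, 13.5 and 7.96 in siErm, overlapping siCtrl through array 3 (0.63 ± 0.55, limma adjusted p 1.0). Plk1 read 127, 119 and 108 in siErm, within the siCtrl range except on array 1 (0.13 ± 0.31, interval -0.55 to 0.80). The groups did not overlap for 0 genes higher and 1 lower, Nek2 at 53.3 to 58.6 against 58.7 to 61.0, beside 2.57% and 2.89% of all probes. The 3 other scalings gave 0, 2 and 0 lower and 1, 0 and 0 higher, without a count over all probes. In all 3 same-numbered pairs 2 genes were higher and 3 lower in siErm (6.45% and 9.68%), against 9.41% and 20.3% of all probes. With quantile, median and detected-probe scaling 9, 2 and 8 were higher (29.0%, 6.45% and 25.8%), against 11.6%, 6.74% and 12.4% of all probes. The lower genes were then 2, 8 and 2 (6.45%, 25.8% and 6.45%), against 16.1%, 26.9% and 14.8%.

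The direct comparison of siPea3 with siErm also called 0 of 31 genes, with 0.00598% of all probes called. The median was -0.35 for the genes and -0.20 for all probes, 26 of 31 were below 0 (83.9%) against 67.7% of all probes, and 22 lay below the median of all probes. Unadjusted p values under 0.05 were found for 1 gene higher (Nusap1, 0.71 ± 0.25) and 2 lower (Foxm1, Anln), against 2.31% and 7.98% of all probes. Foxm1 was lower on every siPea3 array than on any siErm array, narrowly between 7.95 and 7.96. The difference was -1.66 ± 0.52 (3.15-fold, limma adjusted p 0.370). Without siPea3 array 2, on which Foxm1 was not detected and read 1.3, the estimate was -1.17. Anln, at 255 to 377 in siErm, had a difference of -0.64 ± 0.27 (limma, adjusted p 0.469). Groups were separate for 9 genes lower (Ccna2, Plk1, Bub1b, Melk, Tpx2, Ect2, Anln, Top2a, Foxm1), which is 29.0% of the genes beside 10.9% of all probes, and for 1 higher (Cdc20), beside 2.73%. This count depended on the scaling. With quantile, median and detected-probe scaling 6, 4 and 5 genes were separate and lower, and 3, 0 and 2 separate and higher. The share of all probes was not counted under these scalings, so these counts cannot be set against it. This comparison shares its siPea3 arrays with that of siPea3 and siCtrl, and its siErm arrays with that of siErm and siCtrl. It is therefore independent of neither.

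Comparisons with untransfected cells rested on 2 arrays that stood apart for these genes. Between siCtrl and untransfected cells 0 of 31 genes were called, against 1.02% of all probes, and 0 had an unadjusted p under 0.05, against 6.27% higher and 5.13% lower. The median relative to all probes was -0.03, but -0.58 against untransfected array 2 alone and 0.41 against array 1 alone. Bub1b read 39.7 and 75.2 in untransfected cells and 42.6, 33.7 and 33.7 in siCtrl (-0.59 ± 0.34, limma adjusted p 0.545). Kif23 read 66.1 and 74.6 in untransfected cells, above all 3 siCtrl arrays (-1.89 ± 1.10). Cdca8 at 54.2 and 74.1 gave -0.67 ± 0.44. Plk1 at 77.9 and 182 spanned the whole siCtrl group (-0.15 ± 0.34), and Foxm1 at 9.44 and 11.7 lay above it (-0.54 ± 0.62). Ttk at 5.37 and 5.0 in untransfected cells lay above siCtrl at 2.05, 0.83 and 4.48, where it was detected on 2 of 3 arrays. Kif2c read 6.53 and 3.67 in untransfected cells, both above the siCtrl arrays. Between siErm and untransfected cells 0 genes were called as well, against 0.783%, and 0 had an unadjusted p under 0.05, against 5.42% and 4.81%. The relative median there was 0.01, and -0.42 or 0.49 against array 2 or array 1 alone. Against array 1 alone, Aurkb was higher in siCtrl and in siErm, by 1.73 ± 0.31 and 1.65 ± 0.31.

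Between siPea3 and untransfected cells 0 of 31 genes were called, against 6.37% of all probes. At an unadjusted p under 0.05, 1 gene was higher (Nusap1) and 7 were lower (Anln, Bub1b, Ect2, Foxm1, Ttk, Racgap1, Prc1), against 6.58% and 18.6% of all probes. The 7 became 11 without untransfected array 1, 1 without untransfected array 2 and 4 without siPea3 array 2, and the 1 higher gene became 4 without untransfected array 2. The share of all probes is not given for these left-out arrays. Nusap1 was 1.04 ± 0.28 higher (2.05-fold, limma adjusted p 0.0513) and Anln 1.03 lower, its estimate being -1.03 ± 0.31 (limma, adjusted p 0.0725). The adjusted p of Nusap1 ran from 0.0132 to 0.228 over its 16 alternatives and was under 0.05 in 5, one of them without siPea3 array 2 (0.0371). Anln passed in 2 alternatives (0.0261 with only probes detected on every array, 0.0265 with an intensity trend) and Bub1b in 1 (0.0373). Nusap1 and Anln were near equal on the 2 untransfected arrays. These comparisons share the untransfected arrays. The relative median of the 31 genes was -0.15, but -0.57 against untransfected array 2 alone and 0.42 against array 1 alone, where Aurkb was higher by 1.24 ± 0.30.

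Other genes of the pathway, in 7 lists drawn up with earlier results of these data known, gave 0 calls between siPea3 and siCtrl and 0 between siErm and siCtrl. For siPea3 against siCtrl the medians relative to all probes were 0.06 for kinetochore and checkpoint genes (16 tested), -0.13 for cohesion and condensin (14), -0.10 for other mitotic kinases and G2 regulators (18), -0.08 for spindle and centrosome genes (18) and 0.13 for the anaphase-promoting complex (11). They were -0.19 for the upstream regulators (21) and -0.16 for DNA replication (33), the S phase list kept for comparison. Lower at an unadjusted p under 0.05, as 10.6% of all probes were, stood 7 of 33 replication genes, 5 of 21 upstream regulators, 2 of 11 genes of the anaphase-promoting complex, 1 of 18 in the kinase list, 1 of 18 in the spindle list and 0 of the kinetochore and cohesion genes. The replication genes with the smallest p were Pole (-0.89 ± 0.23), Cdc6 (-1.01 ± 0.27), Mcm6 (-0.82 ± 0.27) and Ccne1 (-0.73 ± 0.29). Among the regulators were E2f4, the E2F of the DREAM complex (205 ± 57.2 in siCtrl, 111 ± 29.7 in siPea3, -0.88 ± 0.32), and Mybl2, the B-Myb that joins MuvB (8.26 ± 2.15 and 4.73 ± 1.00, -0.79 ± 0.32). Rbl2 (p130) was not well above background on any array of either group and is given no fold. Btg2 was the 1 regulator higher at that threshold, against 2.78% of all probes (1.28 ± 0.27, limma adjusted p 0.136). Cdkn1a (p21, the inhibitor of cyclin-dependent kinases) read 261 ± 2.01 in untransfected cells, 543 ± 119 in siCtrl, 639 ± 198 in siErm and 806 ± 150.4 in siPea3. It rose between untransfected and siPea3 cells by 1.60 ± 0.31 (limma, adjusted p 0.0151), while siPea3 and siCtrl differed by 0.57 ± 0.27 (adjusted p 0.385). Btg2, an antiproliferative target of p53, rose against untransfected cells in siCtrl (2.50 ± 0.33, limma adjusted p 0.00504), siErm (2.66 ± 0.33, 0.00353) and siPea3 (3.78 ± 0.31, 0.000127). Gtse1, a microtubule-binding protein of G2, was higher than in untransfected cells in siCtrl (1.88 ± 0.39, limma adjusted p 0.0529), siErm (1.74 ± 0.39, 0.0828) and siPea3 (2.14 ± 0.37, 0.00946). Stag1, a cohesin subunit, was lower in siCtrl (-0.70 ± 0.28, limma adjusted p 0.376), siErm (-0.67 ± 0.28, 0.438) and siPea3 (-1.16 ± 0.27, 0.0301). Both went the same way in all transfected groups and were called in siPea3 alone. Against untransfected array 2 alone the limma adjusted p was 0.0897 for Cdkn1a, 0.0840 for Gtse1 (at 1.48) and 0.218 for Stag1. Stag1 also lost its call without siPea3 array 3 (0.0605) or 4 (0.0617), with the replicate block (0.0858), median scaling (0.0686), array weights (0.0565) and no filter (0.0942). The replicate block, with numbers that do not pair these groups, also took Cdkn1a to an adjusted p of 0.0584 in limma. Fitted on only the groups compared, the limma adjusted p was 0.149 and 0.0957 for Btg2 in siCtrl and siErm, 0.0634 for Cdkn1a, 0.0681 for Gtse1 and 0.126 for Stag1, so of these calls that of Btg2 in siPea3 alone held (0.0120). These regulators and the mitosis genes were measured on the same arrays, and their part in the values above was not tested.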

How the data were processed

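The deposited intensity of each probe is the authors' assay normalized signal (linear), per the file headers. Each has a deposited coefficient of variation, a ratio per the file headers. A deposited status code marks failed measurements. How the authors scaled arrays or removed background is not given in the sources used here. Their series table equalled the separate arrays in all 392662 filled values, and its 3482 blanks were failed measurements. Signals were taken to log2 as deposited, and failed measurements were left out. The inverse of the coefficient of variation was read as signal to noise. A probe was detected (well above background) at 3 or more and kept if detected on at least 2 arrays, which left 16726 probes. Those with a value in every group, 16724, were tested. By the array annotation 14411 probes carry 1 symbol, 247 several and 18354 none.

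The test was limma 3.58.1 (lmFit and eBayes in R 4.3.3) on all 12 arrays, with 1 coefficient per group, no covariate, 8 residual degrees of freedom and 3.06 prior ones, Benjamini-Hochberg adjustment over all tested probes and a threshold of 0.05. The fit leaves out Ttk on siPea3 array 1, a failed measurement. Single genes were also compared by exact 2-sided permutation of the arrays, which cannot go below 0.0571 for 4 against 3 arrays, 0.1 for 3 against 3, 0.2 for 3 against 2 and 0.133 for 4 against 2. The number of arrays limits the precision. Errors of signals are SD, errors of log2 differences SE and intervals 95%. The members and lists were chosen with earlier results of these data known. By the rule for named genes, all members are accounted for. Signals array by array are given for the 5 with the smallest p in 3 comparisons, and for Plk1 and Foxm1. The rule also covers called members, of which the main fit had none. Near background, Cdk1 and the siCtrl signals of Kif2c are given as ranges. Same-numbered arrays deviated together for siPea3 and siCtrl (correlations of 0.115 to 0.321) and for siErm and siCtrl (0.225 to 0.312). In the other comparisons they did not. The pairing was therefore read from the data and not from the labels. It entered only the counts of same-numbered pairs and the replicate block. The main fit and the permutation test left it out. The block spanned all groups, also those whose numbers do not pair. For siPea3 and siCtrl the pairing is uncertain, since siPea3 array 4 and siCtrl array 3 also correlated by 0.319. Alternatives were other scalings, filters, fits and left-out arrays. The fit was tested on simulated data. Promoters were read from a RefSeq table (GRCm38.p6), in Python 3.11.15, and the figures were drawn with matplotlib 3.10.9.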

Additional observations from a re-analysis of the deposited data

Results flagged for a closer look

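Among 30 mitosis genes looked at in the 4 siPea3 arrays, 4 had 1 array far from the other 3, and it was array 2 each time, as the lowest. For Nek2 it read 20.4 against 53.5 to 62.5 on the others, a gap of 0.862 of the whole range. Melk read 6.96 against 18.8 to 19.7 (0.955), Ect2 16.2 against 25.1 to 26.3 (0.901) and Top2a 52.6 against 155 to 182 (0.873). Chance alone singles out about 1 in 20 such groups. The same array had the fewest detected probes (11286), and its part in these values was not tested.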

How the results depend on the processing

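The count of 0 called genes held in all alternatives of siPea3 against siCtrl, siErm against siCtrl and siPea3 against siErm, and the replicate block called 0 of the 31 genes in every comparison. Over all probes the block took the calls of siPea3 against siCtrl from 4 higher and 2 lower to 0 and 0, and outside the 31 genes it ended those of Cdkn1a (adjusted p 0.0584 in limma) and Stag1 (0.0858) for siPea3 against untransfected cells. Counts at an unadjusted p under 0.05 moved, and where no value shows why, the cause was not tested. The share of all probes at that threshold is not given for the alternatives, so these counts cannot be set against it. For siPea3 against siCtrl, 2 genes were higher with scaling over detected probes, and the 1 lower gene became 0 with quantile, median and detected-probe scaling, no filter and only the groups compared, 2 with array weights and 0 to 4 with an array left out. For siErm against siCtrl leaving out arrays gave 0 to 1 higher. For siPea3 against siErm the 1 higher gene became 0 with the replicate block and 0 to 1 with an array left out. The 2 lower became 1 with median scaling, detected-probe scaling and no filter, 4 with an intensity trend, 5 with array weights and with only the groups compared, and 1 to 3 with an array left out. In siCtrl against untransfected cells 1 gene was lower with the replicate block and with only the groups compared. With an array left out it was 0 to 3 lower, 0 to 6 higher, 0 to 1 called higher, and the relative median ran from -0.58 to 0.41. For siErm against untransfected cells these were 0 to 2, 0 to 4, 0 to 1 and -0.42 to 0.49. For siPea3 against untransfected cells 1 gene was called higher with quantile or detected-probe scaling, only probes detected on every array, or an intensity trend. Of all probes 965 and 941 of 16724 were called higher with these scalings, 438 of 9160 with that filter and 527 of 16724 with the trend. In this comparison 2 of 27 genes were called lower with only probes detected on every array, against 1252 of 9160 probes. With the trend it was 1 of 31 genes, against 1179 of 16724 probes. At an unadjusted p, 2 were higher with quantile and detected-probe scaling, and the 7 lower became 3 (quantile), 4 (median scaling), 2 (detected probes) and 4 (only the groups compared). With an array left out it was 1 to 11 lower, 1 to 4 higher, 0 to 1 called higher, and the relative median ran from -0.57 to 0.42. Without untransfected array 1 or 2 the genes below 0 went from 18 to 29 or 11 in siCtrl, from 19 to 29 or 7 in siErm and from 22 to 30 or 15 in siPea3, so many genes changed sign there. Of the estimates followed gene by gene, 4 changed sign in leave-one-out fits, ranging from -0.059 to 2.12 (Kif23) and -0.19 to 0.95 (Top2a) for siErm against siCtrl, -0.020 to 1.09 (Ccna2) for siErm and -0.76 to 0.47 (Plk1) for siCtrl against untransfected cells. A lone untransfected array is assumed to vary like the other groups. Signal over background limits Cdk1, Ccnf, Ttk, Kif2c and Foxm1.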
